A study of Homo sapiens with 6 samples.

Results

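The 10 genes described here belong to the epithelial-mesenchymal transition (EMT) and were measured in RNA-seq libraries of a drug-resistant gallbladder cancer line and of the line it came from. They are the transcription factors ZEB1, ZEB2, SNAI1, SNAI2 and TWIST1, the mesenchymal proteins VIM and FN1, the epithelial splicing regulators ESRP1 and ESRP2, and the epithelial transcription factor OVOL2. The 10 genes were chosen by name, and all 10 are among the 63140 genes of the deposited tables. NOZ-R is a gemcitabine-resistant derivative of the established human gallbladder cancer line NOZ, obtained by raising the drug dose in steps. Gemcitabine is a nucleoside analogue used against biliary and pancreatic cancers. The NOZ-R group held 3 libraries and the parental NOZ group held 3. NOZ-R is 1 derived line, so a difference between the groups is a difference between these 2 lines. The labels do not say that the libraries of a line came from separate cultures, so p-values reflect variation among these 6 libraries only, and that variation could be technical.

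Epithelial-mesenchymal transition is the loss of junctions and polarity and the gain of a migratory, matrix-producing state. SNAI1 (Snail), SNAI2 (Slug), ZEB1, ZEB2 and TWIST1 are transcription factors that drive it, and the SNAI and ZEB proteins repress epithelial genes such as CDH1 by binding E-boxes. VIM encodes vimentin, the intermediate filament of mesenchymal cells, and FN1 encodes the matrix protein fibronectin. ESRP1 and ESRP2 bind RNA in epithelial cells and set the epithelial splice form of FGFR2, CD44, CTNND1 and ENAH transcripts. OVOL2 represses ZEB1 and so holds cells in the epithelial state, and microRNAs of the miR-200 family target ZEB1 and ZEB2 transcripts.

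The sequences shown are the upstream regions of VIM and FN1, which carried the most reads of the 10 genes and both rose, and 2 mature miR-200 family members whose host transcript was not detected. All were taken from RefSeq tables (GRCh38.p14), in which 4 of the 10 genes, VIM, FN1, ZEB1 and ZEB2, had a window of 250 bases before the transcription start. Capitals in the upstream regions mark the GC box GGGCGG and the cyclic-AMP response element TGACGTCA, searched on both strands.
VIM upstream region, chr10:17227991-17228240, plus strand: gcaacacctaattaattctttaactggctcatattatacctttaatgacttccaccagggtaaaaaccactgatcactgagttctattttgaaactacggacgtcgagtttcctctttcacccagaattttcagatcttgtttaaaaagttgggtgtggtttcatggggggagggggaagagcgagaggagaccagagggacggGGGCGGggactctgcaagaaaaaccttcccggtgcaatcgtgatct
FN1 upstream region, chr2:215436173-215436318, minus strand: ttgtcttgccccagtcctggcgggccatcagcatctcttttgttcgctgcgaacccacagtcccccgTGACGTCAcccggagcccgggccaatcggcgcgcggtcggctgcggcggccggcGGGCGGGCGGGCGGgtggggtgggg
Capitals in the microRNAs mark the seed, bases 2 to 8.
hsa-miR-200c-3p: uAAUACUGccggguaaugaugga
hsa-miR-141-3p: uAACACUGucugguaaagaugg
The window of VIM held 1 GC box, and that of FN1 held 6, of which 3, overlapping each other, lie in the 146 bases printed. The rest of the FN1 window lies before the RefSeq start but inside the GENCODE v29 gene, and was not printed. A GC box occurred in 42.5% of the 34943 promoter windows of this length. The response element occurred in 1.63% of the windows, and FN1 had it 183 bases before the start. Neither window held the E-box CACCTG, which SNAI and ZEB proteins bind and which occurred in 17.5% of all windows, or the AP-1 motif TGACTCA, which occurred in 4.22%. Of the 7 annotated ZEB1 starts, 2 had CACCTG in their window. These are matches of letters and say nothing of whether a factor is bound. The 2 microRNAs have different seeds.

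Total counts lay between 15661532 and 18855409 per library in NOZ-R and between 14136037 and 19244923 in NOZ. Levels are given as CPM, counts divided by TMM-scaled library size, and differences as log2 fold changes of NOZ-R over NOZ from edgeR's quasi-likelihood test over 14386 genes, called at an adjusted p below 0.05. NOZ replicate 2 stood apart from the other NOZ libraries. The rank correlation, across genes, of a library's deviation from the mean of its line with transcript GC content was 0.29, -0.057 and -0.21 for NOZ-R replicates 1, 2 and 3, and 0.31, -0.50 and 0.37 for NOZ replicates 1, 2 and 3. Of the 10 genes, 9 passed the filter on low counts. ESRP1, FN1, VIM and SNAI2 rose in NOZ-R, 0 fell, and ZEB1, ZEB2, SNAI1, ESRP2 and OVOL2 did not pass the test. Over all genes tested, 30.4% were called higher and 29.8% lower in NOZ-R, so a call in either direction was made for 60.2% of genes. Against a 2-fold change, ESRP1, FN1 and VIM passed, where 5.89% of all genes passed as higher and 8.96% in either direction. The CPM values of the lines did not overlap for 4 of the 9 genes, all higher in NOZ-R, against 65.3% of all genes in either direction and 32.9% with NOZ-R higher. The median log2 fold change of the 9 genes was 0.23, against -0.013 over all genes tested. In these bulk libraries, fewer cells that carry a transcript and less of it per cell cannot be told apart.

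**Figure D1:**
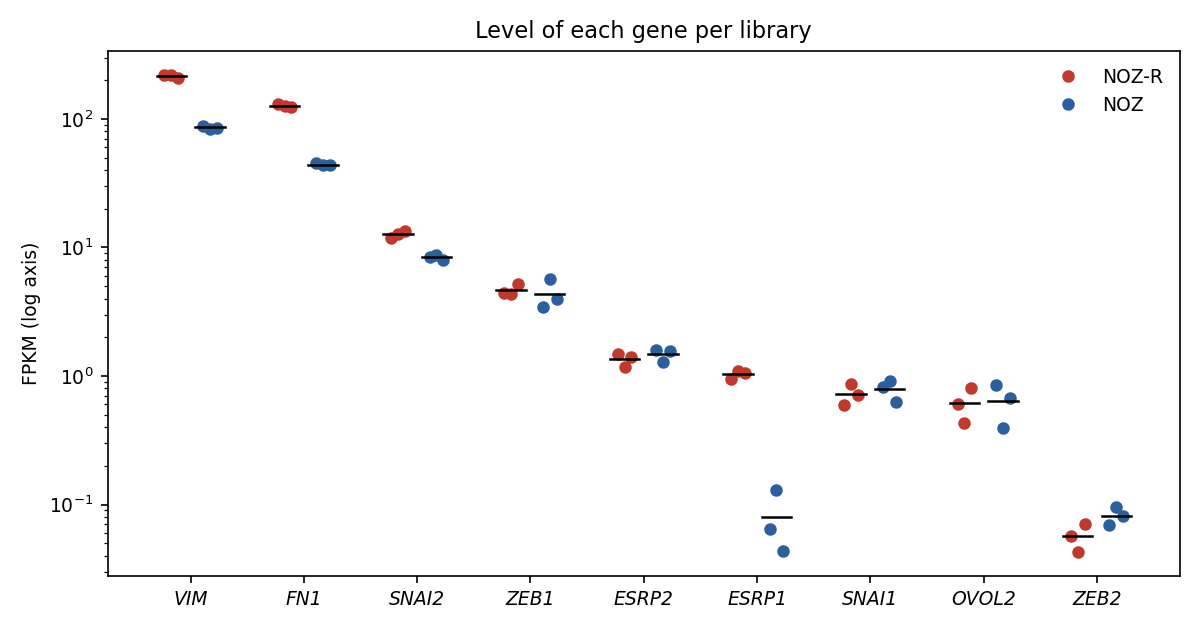
Level of the 9 genes with counts in every library, as FPKM on a log axis, with NOZ-R to the left of NOZ and a black line at the mean of 3 libraries. VIM and FN1 lie above 100 FPKM in NOZ-R and below 100 in NOZ, ESRP1 lies near 1 FPKM in NOZ-R and near 0.1 in NOZ. TWIST1, at 0 counts in all libraries, is not drawn.

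Among the transcription factors that drive EMT, SNAI2 was the one that rose. SNAI2 (chromosome 8, 48917604 to 48921740) encodes the zinc-finger repressor Slug. Its level was 40.4, 43.6 and 46.4 CPM in NOZ-R, against 26.7, 27.5 and 25 CPM in NOZ. All 3 NOZ-R libraries lay above all 3 NOZ libraries. The means were 43.5 ± 3.0 CPM in NOZ-R and 26.4 ± 1.29 CPM in NOZ (SD, n = 3 each), and the log2 fold change was 0.72 ± 0.081 (SE; 95% interval 0.54 to 0.89; edgeR adjusted p = 4.39e-06). The difference was smaller than 2-fold, at 1.65-fold of the means, and SNAI2 did not pass the test against a 2-fold change (edgeR adjusted p = 1.0). A log2 fold change at least as high was seen for 13.1% of all genes tested.

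ZEB1, a zinc-finger and homeodomain repressor of CDH1 and of the miR-200 genes, overlapped between the lines and was called or not depending on 1 library and on the filter. ZEB1 (chromosome 10, 31318495 to 31529814) had 39.9, 39.3 and 47.4 CPM in NOZ-R, against 28.5, 47.0 and 32.7 CPM in NOZ. NOZ replicate 2 lay inside the NOZ-R range and the other 2 NOZ libraries lay below it. The means were 42.2 ± 4.52 CPM in NOZ-R and 36.1 ± 9.68 CPM in NOZ (SD, n = 3 each). The log2 fold change was 0.23 ± 0.15 (SE; 95% interval -0.091 to 0.54) and did not pass the test (edgeR adjusted p = 0.201). Without NOZ replicate 2 it was 0.47 and passed (edgeR adjusted p = 0.000151), and with no filter on low counts it was 0.22 and passed (edgeR adjusted p = 0.0426). The GC content of ZEB1 transcripts is 38.5%. After the removal of the GC trend the log2 fold change was still 0.23 and did not pass (edgeR adjusted p = 0.0544).

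ZEB2 and SNAI1 were measured by few counts in both lines. ZEB2 (chromosome 2, 144364364 to 144524583), the paralogue of ZEB1, had 28, 19 and 29 counts in NOZ-R, against 35, 43 and 30 counts in NOZ. The means were 1.56 ± 0.38 CPM in NOZ-R and 2.05 ± 0.32 CPM in NOZ (SD, n = 3 each), the ranges overlapped, and the log2 fold change of -0.40 ± 0.27 (SE; 95% interval -0.97 to 0.17) did not pass the test (edgeR adjusted p = 0.209). SNAI1 (chromosome 20, 49982999 to 49988886), which encodes Snail, had 19, 25 and 19 counts in NOZ-R, against 27, 27 and 15 counts in NOZ. Its means were 1.29 ± 0.25 CPM in NOZ-R and 1.29 ± 0.25 CPM in NOZ (SD, n = 3 each). Its log2 fold change was -0.015 ± 0.29 (SE; edgeR adjusted p = 0.968), and its 95% interval of -0.65 to 0.62 spans changes in both directions. TWIST1 (chromosome 7, 19020991 to 19117672), a basic helix-loop-helix factor, had 0 counts in all 6 libraries and was not tested. A count of 0 allows up to 3 counts, which is 0.166 to 0.201 CPM in the NOZ-R libraries and 0.150 to 0.203 CPM in the NOZ libraries, for counting error only.

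VIM and FN1, the mesenchymal products, rose the most clearly against the spread between libraries. VIM (chromosome 10, 17228259 to 17237593) measured 1194, 1199 and 1123 CPM in NOZ-R, against 441.0, 414.5 and 422.4 CPM in NOZ. The lowest NOZ-R library lay far above the highest NOZ library. The means were 1172 ± 42.2 CPM in NOZ-R and 426.0 ± 13.6 CPM in NOZ (SD, n = 3 each), and the log2 fold change was 1.46 ± 0.050 (SE; 95% interval 1.35 to 1.57; edgeR adjusted p = 3.01e-11), or 2.75-fold of the means. As a share of the library's counts, VIM measured 0.112% ± 0.0043 in NOZ-R and 0.0445% ± 0.0013 in NOZ (SD, n = 3 each). A log2 fold change at least as high was seen for 5.87% of all genes tested.

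FN1 (chromosome 2, 215360440 to 215436172), which encodes fibronectin, measured 2333, 2287 and 2243 CPM in NOZ-R, against 744.9, 716.3 and 718.9 CPM in NOZ. The NOZ-R libraries were again all far above the NOZ libraries. The means were 2288 ± 45.2 CPM in NOZ-R and 726.7 ± 15.8 CPM in NOZ (SD, n = 3 each), and the log2 fold change was 1.65 ± 0.045 (SE; 95% interval 1.56 to 1.75; edgeR adjusted p = 2.66e-12), or 3.15-fold of the means. Its share of the library's counts was 0.218% ± 0.0052 in NOZ-R and 0.0759% ± 0.0014 in NOZ (SD, n = 3 each). A log2 fold change at least as high was seen for 5.14% of all genes tested. Gene counts do not separate the splice forms of FN1, with or without the extra domains.

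ESRP1, an epithelial RNA-binding protein, showed the highest log2 fold change of the 10 genes. ESRP1 (chromosome 8, 94641074 to 94707466) had 87, 91 and 81 counts in NOZ-R, against 6, 11 and 3 counts in NOZ, which is 4.81, 5.64 and 5.43 CPM in NOZ-R and 0.30, 0.609 and 0.203 CPM in NOZ. The lowest NOZ-R library lay well above the highest NOZ library. The means were 5.29 ± 0.43 CPM in NOZ-R and 0.371 ± 0.212 CPM in NOZ (SD, n = 3 each), and the log2 fold change was 3.78 ± 0.29 (SE; 95% interval 3.15 to 4.4; edgeR adjusted p = 1.03e-07), or 14.3-fold of the means. A value at least as high was seen for 1.72% of all genes tested. The NOZ counts are small, so the size of the fold rests on few reads in NOZ, and it ranged over the alternatives from 0.92, on the log2(FPKM + 1) scale that shrinks low genes, to 4.32, without NOZ replicate 2.

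Its paralogue ESRP2 and the ZEB1 repressor OVOL2 did not pass the test. ESRP2 (chromosome 16, 68229111 to 68238102) had 8.02, 6.38 and 7.64 CPM in NOZ-R, against 7.89, 6.37 and 7.72 CPM in NOZ. The 2 lines covered nearly the same range. The log2 fold change was 0.0063 ± 0.14 (SE; 95% interval -0.30 to 0.31; edgeR adjusted p = 0.973). OVOL2 (chromosome 20, 17956979 to 18059188), a zinc-finger repressor, had 25, 16 and 28 counts in NOZ-R, against 36, 15 and 21 counts in NOZ. Its means were 1.42 ± 0.44 CPM in NOZ-R and 1.35 ± 0.49 CPM in NOZ (SD, n = 3 each), and the log2 fold change was 0.053 ± 0.34 (SE; 95% interval -0.69 to 0.79; edgeR adjusted p = 0.904), an interval that spans changes in both directions. ESRP2 shares 149 exon bases with NFATC3 on the opposite strand, and OVOL2 shares 59 with SNX5, so a part of their reads may belong to those genes.

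**Figure D2:**
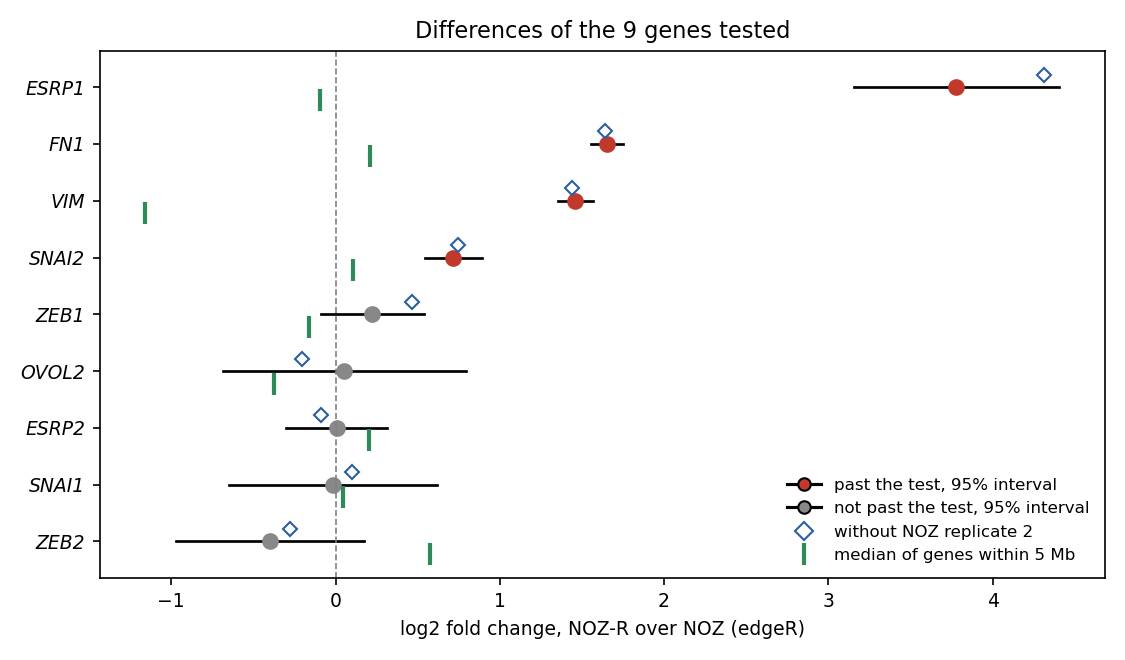
Log2 fold change of NOZ-R over NOZ for the 9 genes tested, with the 95% interval of the edgeR fit (red, past the test; grey, not past it). Diamonds give the value without NOZ replicate 2 and green ticks the median of the tested genes within 5 Mb: ESRP1, FN1, VIM and SNAI2 lie right of 0, ZEB1 moves to 0.47 without that library, and VIM at 1.46 stands against a neighbour median of -1.16.

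The levels per transcript length, in FPKM, put the 10 genes in the same order in both lines apart from ESRP1. VIM was highest, at 216.1 ± 8.22 FPKM in NOZ-R and 85.9 ± 2.51 FPKM in NOZ, followed by FN1 at 126.9 ± 3.0 FPKM in NOZ-R and 44.1 ± 0.84 FPKM in NOZ (SD, n = 3 each). SNAI2 came next, at 12.6 ± 0.83 FPKM in NOZ-R and 8.40 ± 0.42 FPKM in NOZ, and then ZEB1 at 4.66 ± 0.49 FPKM in NOZ-R and 4.35 ± 1.18 FPKM in NOZ. These 4 did not overlap one another within either line. ESRP2 followed at 1.35 ± 0.16 FPKM in NOZ-R and 1.47 ± 0.16 FPKM in NOZ. ESRP1 stood just below ESRP2 in NOZ-R, at 1.04 ± 0.08 FPKM, and overlapped ZEB2 at the bottom of the order in NOZ, at 0.079 ± 0.046 FPKM. SNAI1, at 0.722 ± 0.137 FPKM in NOZ-R and 0.788 ± 0.151 FPKM in NOZ, and OVOL2, at 0.614 ± 0.192 FPKM in NOZ-R and 0.639 ± 0.229 FPKM in NOZ, overlapped each other in both lines. ZEB2 measured 0.057 ± 0.014 FPKM in NOZ-R and 0.082 ± 0.013 FPKM in NOZ. The deposited FPKM values hold no composition correction and use 1 fixed length per gene, 26151 bases for ZEB2, 17216 for FN1 and 5176 for VIM, so the order depends on these lengths.

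Shares within a library need no scaling between libraries. ESRP1 made up 39.0%, 48.5% and 43.1% of the summed FPKM of ESRP1 and ESRP2 in NOZ-R, against 3.89%, 9.24% and 2.72% in NOZ. The share was higher in every NOZ-R library, where the pair stood closer to equal parts, while ESRP2 made up almost all of the sum in NOZ. Together they summed to 2.39 ± 0.10 FPKM in NOZ-R and 1.55 ± 0.12 FPKM in NOZ (SD, n = 3 each). Unlike the shares, this sum depends on the scaling between libraries, and FPKM holds no composition correction. Of the summed FPKM of the 5 transcription factors that drive EMT, SNAI2 made up 69.96% ± 0.78 in NOZ-R and 62.0% ± 4.81 in NOZ, and ZEB1 25.7% ± 1.36 in NOZ-R and 31.6% ± 4.95 in NOZ (SD, n = 3 each). The sum of the 5 factors, which also depends on that scaling, was 18.1 ± 1.3 FPKM in NOZ-R and 13.6 ± 1.61 FPKM in NOZ. The ratio of VIM to the summed FPKM of KRT8 and KRT18, the keratins of simple epithelium, was 0.784 ± 0.019 in NOZ-R and 0.379 ± 0.040 in NOZ (SD, n = 3 each). Both keratins were themselves called higher in NOZ-R, KRT8 by 0.25 and KRT18 by 0.64 (edgeR adjusted p = 0.00378 and 6.45e-05). KRT8 and KRT18 share 525 exon bases on opposite strands, so a part of the reads of each may belong to the other.

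The antisense transcripts at VIM and ZEB1 both fell in NOZ-R. VIM-AS1 (chromosome 10, 17214239 to 17229985), whose locus spans the VIM upstream region printed above, had 164, 162 and 122 counts in NOZ-R, against 749, 671 and 558 counts in NOZ. Its log2 fold change was -2.04 with an SE of 0.093 (edgeR adjusted p = 5.50e-10), and the number of VIM reads per VIM-AS1 read was 129.5 ± 9.14 in NOZ-R and 11.4 ± 0.36 in NOZ (SD, n = 3 each). ZEB1-AS1 had 95, 74 and 71 counts in NOZ-R, against 216, 186 and 156 counts in NOZ, and its log2 fold change was -1.11 with an SE of 0.13 (edgeR adjusted p = 4.32e-06). ZEB1 reads per ZEB1-AS1 read numbered 8.71 ± 1.19 in NOZ-R and 3.43 ± 1.0 in NOZ. Relative to the median of chromosome 10, -0.60, these values were -1.44 for VIM-AS1 and -0.52 for ZEB1-AS1. The median of the tested genes within 5 Mb was -1.16 around VIM and -0.16 around ZEB1, so the chromosome median describes neither locus closely. The library protocol describes no step that marks strand, and VIM shares 641 and ZEB1 366 exon bases with these partners, so reads of the shared bases cannot be told apart. MIR200CHG, the host transcript of the 2 microRNAs printed above, and ZEB2-AS1 had 0 counts in all 6 libraries, and MIR205HG, host of another microRNA that targets ZEB transcripts, had 7, 1 and 1 counts in NOZ-R and 0, 1 and 0 in NOZ. Mature microRNAs are not captured by poly-A selection and were not measured. MIR17HG, host of the miR-17-92 cluster, also fell, at -0.99 on that scale (edgeR adjusted p = 0.00147), or -0.61 relative to the median of its chromosome. SNAI3-AS1, MIR155HG and LINC00963 had log2 fold changes of -0.31, -0.24 and 0.12 and did not pass the test (edgeR adjusted p = 0.421, 0.214 and 0.380). In all, 0 of the 6 tested antisense and host transcripts rose and 3 fell, against 30.4% and 29.8% of all genes.

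**Figure D3:**
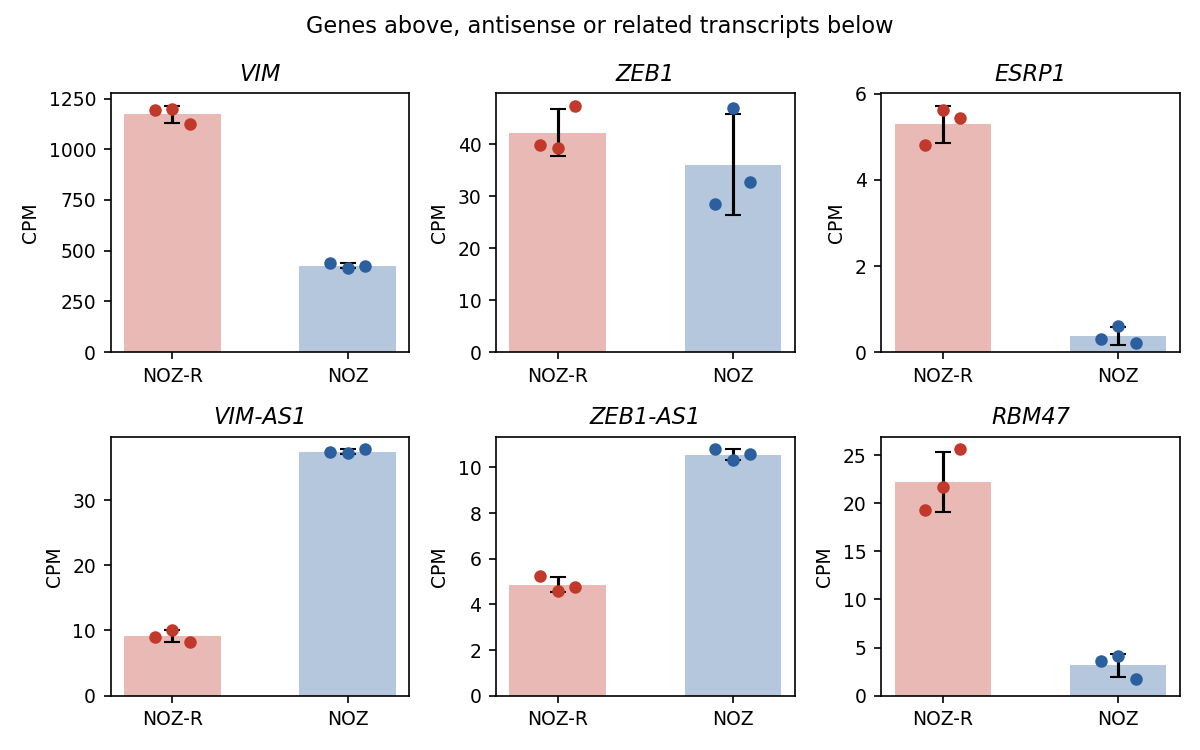
CPM per library, NOZ-R left of NOZ, for VIM, ZEB1 and ESRP1 in the upper panels and VIM-AS1, ZEB1-AS1 and the splicing regulator RBM47 in the lower ones (points, libraries; bars, mean of 3 libraries; error bars, SD). VIM, ESRP1 and RBM47 lie higher in NOZ-R with no overlap, VIM-AS1 and ZEB1-AS1 lie lower with no overlap, and for ZEB1 NOZ replicate 2 lies among the NOZ-R libraries.

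Most genes around VIM were lower in NOZ-R. Of the 36 tested genes within 5 Mb of VIM, 1 was called higher and 34 lower in NOZ-R, with a median log2 fold change of -1.16, and the median over the 551 tested genes of chromosome 10 was -0.60. VIM had the second highest log2 fold change in its window. Relative to the chromosome median its value was 2.06 in place of 1.46, and that of ZEB1, on the same chromosome, was 0.82 in place of 0.23. Around ZEB1, 3 of 32 genes were called higher and 13 lower, with a median of -0.16. Around ESRP1, 11 of 41 genes were called higher and 12 lower, with a median of -0.095, and ESRP1 had the highest value of its window. Around FN1, 26 of 51 genes were called higher and 5 lower, with a median of 0.21. The window of SNAI2 had 5 of 10 genes called higher and 3 lower, with a median of 0.11. For all of these windows, the shares over all genes tested were 30.4% called higher and 29.8% called lower.

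The 3 genes whose levels over the 6 libraries were most like those of ESRP1 were CTSO, SLC2A13 and ZBP1, at distances of 0.489, 0.489 and 0.531 on the log2(FPKM + 0.1) scale. CTSO measured 1.03 FPKM on average in NOZ-R and 0.070 FPKM in NOZ, SLC2A13 1.01 FPKM in NOZ-R and 0.074 FPKM in NOZ, and ZBP1 0.946 FPKM in NOZ-R and 0.071 FPKM in NOZ. They were picked for this likeness, which was measured over 6 libraries of 2 lines.

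Other transcription factors linked to EMT were mixed. Of 20 listed, 13 were tested, 6 rose and 2 fell, which is 46.2% and 15.4%, against 30.4% and 29.8% of all genes, with a median log2 fold change of 0.16 against -0.013 over all genes. TBX3, a T-box repressor, rose by 2.41 (SE 0.096; edgeR adjusted p = 1.35e-10), with 39.4, 40.4 and 42.6 CPM in NOZ-R, against 8.49, 7.04 and 7.45 CPM in NOZ. The forkhead factor FOXQ1 rose by 0.75 and TCF3, which encodes E12 and E47, by 0.39. The homeobox gene MSX2 fell by 0.93 and the forkhead gene FOXC1 by 0.46. Relative to the median of their chromosome, FOXQ1 measured 0.42 and FOXC1 -0.80. Of 22 epithelial transcription factors, 13 were tested, 3 rose and 6 fell, which is 23.1% and 46.2%, with a median of -0.50. TFAP2C, an AP-2 factor, had 13, 23 and 25 counts in NOZ-R, against 267, 215 and 186 counts in NOZ, which gives a log2 fold change of -3.33 with an SE of 0.21 (edgeR adjusted p = 1.15e-08), while its paralogue TFAP2A rose by 1.86. GRHL3, a grainyhead factor of surface epithelia, fell by 1.39 and FOXA2 by 0.73, and KLF4 rose by 0.69, or 1.32 relative to the median of its chromosome. GRHL2, which acts with OVOL2 in epithelial cells, had 4, 1 and 3 counts in NOZ-R and 5, 2 and 0 in NOZ, and OVOL1 had 2, 0 and 0 counts in NOZ-R and 0 in each NOZ library, so neither was tested.

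Among RNA-binding proteins that set epithelial or mesenchymal splice forms, RBM47 had the highest log2 fold change of those tested. RBM47, an epithelial RNA-binding protein, had 350, 350 and 382 counts in NOZ-R, against 72, 74 and 26 counts in NOZ. Its means were 22.2 ± 3.17 CPM in NOZ-R and 3.15 ± 1.23 CPM in NOZ (SD, n = 3 each), and its log2 fold change was 2.78 with an SE of 0.20 (edgeR adjusted p = 5.04e-08). Of the 30 genes listed, 26 were tested, 10 rose and 8 fell, which is 38.5% and 30.8%, against 30.4% and 29.8% of all genes, with a median log2 fold change of -0.078. QKI, which promotes mesenchymal splice forms, rose by 0.83 and AKAP8 by 0.62. PTBP3 fell by 0.76, RBFOX2, which also favours mesenchymal forms, by 0.54, and TIAL1 by 0.50. Relative to their chromosome medians, QKI measured 0.49, PTBP3 -0.12 and TIAL1 0.10, so the direction of TIAL1 turned. With library size as the only scaling, 13 of this list were called lower.

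Genes whose transcripts ESRP proteins are known to splice were counted at gene level, which does not show splice forms. Of 25 listed, 24 were tested, 7 rose and 5 fell, which is 29.2% and 20.8%, against 30.4% and 29.8% of all genes, with a median log2 fold change of -0.011. The kinesin gene KIF13A rose by 1.89, UAP1 by 0.98 and the FGF receptor gene FGFR1 by 0.68. The kinase gene SLK fell by 1.43, RALGPS2 by 1.34 and TCF7L2 by 0.86. Relative to the median of chromosome 10, SLK measured -0.84 and TCF7L2 -0.27. FGFR2, the best known ESRP target, had 0 counts in NOZ-R and 1, 0 and 0 in NOZ. The number called lower was 9 with library size as the only scaling and 10 with the GC trend removed.

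Epithelial adhesion and polarity genes moved in both directions. Of 35 listed, 28 were tested, 12 rose and 9 fell, which is 42.9% and 32.1%, against 30.4% and 29.8% of all genes, with a median log2 fold change of 0.095. CDS1, which makes CDP-diacylglycerol, rose by 2.32 and DSP, the desmosomal protein desmoplakin, by 1.26. MYO5B, a motor of apical recycling, fell by 1.15 and the claudin gene CLDN4 by 0.92. CDH1, E-cadherin, the classical target of the SNAI and ZEB repressors, had 5, 2 and 7 counts in NOZ-R, against 26, 14 and 15 counts in NOZ. The log2 fold change of CDH1 was -1.83 ± 0.47 (SE; edgeR adjusted p = 0.00386), and its mean of 0.290 CPM in NOZ-R and 1.03 CPM in NOZ was low in both lines.

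Most of the tested mesenchymal effector genes other than VIM and FN1 rose. Of 30 listed, 25 were tested, 17 rose and 3 fell, which is 68.0% and 12.0%, against 30.4% and 29.8% of all genes, with a median log2 fold change of 0.51. POSTN, periostin of the matrix, had 62, 57 and 58 counts in NOZ-R and 0 in each NOZ library, at least 63.4-fold higher in NOZ-R against a floor of 3 counts over the NOZ group. NNMT, nicotinamide N-methyltransferase, had 114, 116 and 90 counts in NOZ-R, against 0, 0 and 1 in NOZ, or 344.1 times as much, and the 95% interval of that ratio from counting error was 61.3 to 13633. THBS1, thrombospondin 1, had 486, 516 and 522 CPM in NOZ-R, against 10.6, 10.1 and 11.04 CPM in NOZ, which gives a log2 fold change of 5.59 with an SE of 0.070 (edgeR adjusted p = 1.70e-15). The smooth-muscle actin gene ACTA2 fell by 0.46 (edgeR adjusted p = 0.0429), a call that was lost on leaving out any 1 library. The tropomyosin genes TPM1 and TPM2 fell by 0.28 and 0.25. ACTA2 and TPM2 lie on chromosomes 10 and 9, whose medians were -0.60 and -0.64, and relative to these their values were 0.14 and 0.39. CDH2, N-cadherin, had 2, 4 and 1 counts in NOZ-R and 0 in each NOZ library and was not tested.

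**Figure D4:**
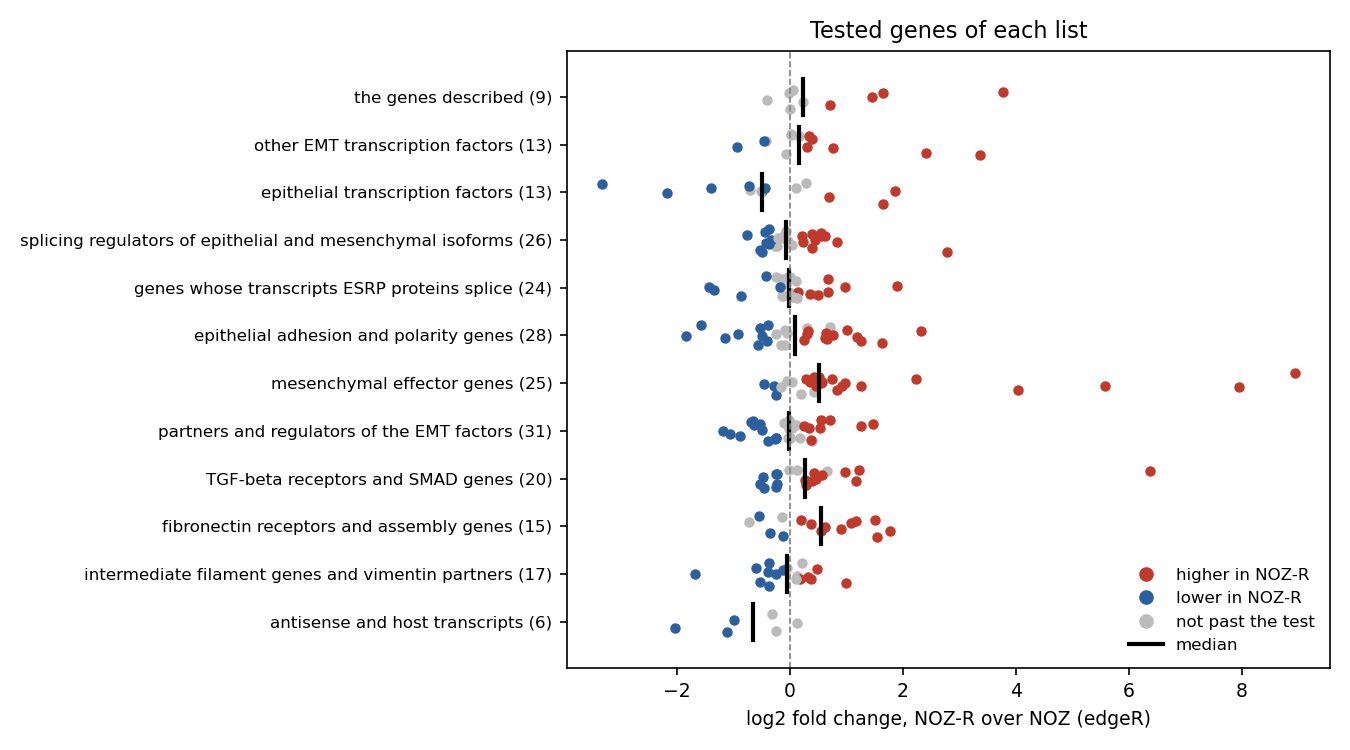
Log2 fold change of NOZ-R over NOZ for every tested gene of each list, with the number tested in brackets and a black line at the median (red, called higher; blue, called lower; grey, not past the test). The medians of the mesenchymal effectors and of the fibronectin receptors lie at 0.51 and 0.55, and that of the epithelial transcription factors lies at -0.50; the fitted value of POSTN, at 0 counts in NOZ, depends on the prior count.

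Fibronectin is bound and assembled by integrins and syndecans, and most of the tested genes of that list rose. Of 20 listed, 15 were tested, 10 rose and 3 fell, which is 66.7% and 20.0%, against 30.4% and 29.8% of all genes, with a median log2 fold change of 0.55. ITGA5, the alpha chain of the main fibronectin receptor, had 349, 353 and 358 CPM in NOZ-R, against 105, 93.1 and 113 CPM in NOZ, which gives a log2 fold change of 1.77 with an SE of 0.068 (edgeR adjusted p = 9.51e-11). SDC4, a syndecan co-receptor, rose by 1.54 and ITGB6, a chain of an epithelial integrin, by 1.5. VCL fell by 0.55, TLN1 by 0.35 and PTK2, the focal adhesion kinase, by 0.12, all 3 of them genes of the link from integrins to actin. The call of PTK2 (edgeR adjusted p = 0.0448) was lost on leaving out any library except NOZ replicate 2, and relative to their chromosome medians VCL, TLN1 and PTK2 measured 0.047, 0.29 and -0.20.

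Intermediate filament genes and vimentin partners moved in both directions. Of 20 listed, 17 were tested, 5 rose and 8 fell, which is 29.4% and 47.1%, against 30.4% and 29.8% of all genes, with a median log2 fold change of -0.050. PLEC, the linker plectin, rose by 0.995, FLNA by 0.47 and KIFC3 by 0.37. NES, nestin, which forms filaments together with vimentin, measured 108, 113 and 103 CPM in NOZ-R, against 364, 327 and 357 CPM in NOZ, which gives a log2 fold change of -1.69 with an SE of 0.062 (edgeR adjusted p = 6.28e-11). The ratio of VIM to NES in FPKM was 11.7 ± 0.27 in NOZ-R and 1.31 ± 0.046 in NOZ (SD, n = 3 each). DST fell by 0.60 and SYNM by 0.53. Relative to their chromosome medians, FLNA measured 0.91, KIFC3 0.16 and DST -0.93.

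Genes that bind or regulate the EMT factors and the TGF-beta pathway, a known inducer of SNAI and ZEB genes, were counted as well. Of 32 partners and regulators, 31 were tested, 8 rose and 12 fell, which is 25.8% and 38.7%, against 30.4% and 29.8% of all genes, with a median log2 fold change of -0.012. The lysyl oxidase-like genes LOXL3 and LOXL2, whose products bind Snail, rose by 1.25 and 0.56, and the acetyltransferase gene KAT2B rose by 0.70. PAK1, a kinase that phosphorylates Snail, fell by 1.19, BTRC, a ubiquitin ligase subunit for Snail, by 1.06 and the deubiquitinase gene USP27X by 0.88. Relative to their chromosome medians, BTRC measured -0.47 and USP27X -0.44. All 20 TGF-beta receptor and SMAD genes were tested, 10 rose and 7 fell, against 30.4% and 29.8% of all genes. Their median was 0.27. TGFBR3, the co-receptor betaglycan, had 192, 182 and 193 counts in NOZ-R, against 4, 3 and 0 counts in NOZ, which gives a log2 fold change of 6.38 with an SE of 0.31 (edgeR adjusted p = 9.86e-10). The pathway inhibitor SMAD7 rose by 1.23. The decoy receptor BAMBI rose by 1.16 (edgeR adjusted p = 0.0111) in the full set, with 44, 37 and 16 counts in NOZ-R, against 15, 20 and 11 counts in NOZ, and its call was lost without NOZ-R replicate 1 or 2. Relative to the median of chromosome 10, BAMBI measured 1.76. ZFYVE9, the SMAD anchor SARA, fell by 0.53, the receptor gene ACVR1B by 0.47 and the inhibitory SMAD6 by 0.46.

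Markers of the labelled tissue and of other cell types were summed per library. Biliary epithelium markers reached 3647 to 3731 CPM in NOZ-R and 2771 to 3250 CPM in NOZ. Of the 14 listed, 10 were tested, 5 rose and 3 fell, against 30.4% and 29.8% of all genes. SOX17, CFTR and ONECUT1 were at 0 counts in all libraries. KRT19 was high in both lines, at 891 CPM on average in NOZ-R and 927 CPM in NOZ. KRT7 was among those that rose, by 1.08, and CLDN4 was among the 3 that fell, by 0.92. Fibroblast markers summed to 14.04 to 15.2 CPM in NOZ-R and 6.64 to 6.91 CPM in NOZ. Of the 12 listed, 6 were tested, 3 rose and 1 fell, against 30.4% and 29.8% of all genes. The median log2 fold change of the tested fibroblast markers was 1.99, which leaves out the markers that did not pass the filter on low counts. POSTN, at 0 counts in each NOZ library, passed that filter only through its counts in NOZ-R. POSTN, described above, was among those that rose, and ACTA2 was the 1 that fell. PDPN was at 0 counts in all libraries. COL1A2 had 3, 1 and 0 counts in NOZ-R, THY1 had 1, 0 and 0, and both had 0 in each NOZ library. Leukocyte and endothelial markers summed to 15.9 to 16.97 CPM in NOZ-R and 6.32 to 9.64 CPM in NOZ. Of the 4 tested of 12 listed, 3 rose and 0 fell, which is 75.0% and 0%, against 30.4% and 29.8% of all genes. Among the defining leukocyte and endothelial genes, PTPRC had 4, 2 and 5 counts in NOZ-R and 28, 14 and 7 in NOZ, KDR had 0, 1 and 0 in both lines, and PECAM1, the endothelial adhesion gene, rose by 2.29. The fibroblast sum, the leukocyte and endothelial sum and the biliary sum were all higher in NOZ-R, as VIM and FN1 were. The part of other cell types in the VIM and FN1 results was not tested.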

How the data were processed

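RNA-seq libraries of 3 NOZ-R and 3 NOZ samples were compared. Per the labels' protocols, libraries were made from fragmented poly-A RNA by random priming and PCR, without molecular identifiers, and no step that records strand is described. The submitters' processing notes name fastp 0.22.0 and the genome GRCh38. The sources used here do not name the aligner, the counter or its strand setting. The authors deposited raw counts per gene and FPKM values for the same genes; each deposited FPKM equals the count over the library total and 1 length per gene (largest relative spread of that length 8.08e-14). Positions come from GENCODE v29.

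Counts were filtered with filterByExpr, scaled by TMM (factors of 0.954 to 0.961 for NOZ-R and of 1.04 to 1.05 for NOZ) and tested with edgeR 4.0.16 (quasi-likelihood F test, Benjamini-Hochberg adjustment over 14386 genes) in R 4.3.3. The standard error is the log2 fold change over the square root of F. The script was tested on simulated counts. Alternatives used limma 3.58.1, DESeq2 1.42.0 and other scalings, filters and library subsets. A GC trend (loess, span 0.3) was fitted where transcript GC was known, for 96.5% of genes. Python 3.11.15, pandas 2.3.3 and matplotlib 3.10.9 made tables and plots.

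The 10 genes, the lists of 301 further genes and the alternatives were chosen with earlier results of these data known. Beside the 10 genes, those named are CDH1, RBM47, GRHL2, OVOL1 and CDH2, up to 3 increases and 3 decreases per list by size of log2 fold change among called genes averaging 1 CPM or more, the antisense and host transcripts with at least 10 counts in any library, and the 3 genes most like ESRP1. Some genes that this rule selects are not reported here. Others named for their counts, among them MIR200CHG, FGFR2, COL1A2 and THY1, were chosen after their values were seen. No replicate pair looked like a duplicate, with mean chi-square values of 2.17 to 11.3 per gene, and all 6 libraries were kept. PCR copies cannot be recognised, so the floors and the interval of the NNMT ratio reflect counting error alone. The intervals of the log2 fold changes come from the edgeR fit and include the variation between libraries.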

Additional observations from a re-analysis of the deposited data

How the results depend on the processing

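VIM, FN1 and ESRP1 passed in all 18 alternatives with a test, and SNAI2 in 17, with a log2 fold change of 0.72 but an edgeR adjusted p of 1.0 against a 2-fold change. ZEB1 passed with no filter on low counts (0.22, edgeR adjusted p = 0.0426) and without NOZ replicate 2; leaving out each library gave 0.081 to 0.47. So 5 of the genes were called higher in those 2 settings, 3 against a 2-fold change and 4 in the rest, and 0 lower in any. Over all genes, 847 were higher and 442 lower against a 2-fold change. With no scaling beyond library size, the median over all genes shifted by -0.13, with 3316 higher and 5468 lower, in place of 4379 and 4284; the split was 3976 and 5199 with the GC trend removed, 3219 and 5298 in limma on log2(FPKM + 1) and 3237 and 5317 on log2(FPKM + 0.1). Relative to chromosome medians, log2 fold changes were 2.06 for VIM, 1.47 for FN1, 0.82 for ZEB1 and -0.21 for ESRP2, and positive for TIAL1 (0.10), ACTA2 (0.14), TPM2 (0.39), VCL (0.047) and TLN1 (0.29). Same-numbered libraries showed no shared deviation across genes (r of 0.068, -0.022 and -0.036), which does not show that they were unpaired. With the replicate number as a block, 4 of the genes were higher and 0 lower, and 4324 and 4180 of all genes. Of 69 other named genes called, 23 kept the call in every alternative and 43 lost it only against a 2-fold change. The fibroblast markers called higher were 5 in place of 3 without any 1 NOZ library and 6 with no filter. At this depth SNAI1, OVOL2 and ZEB2, with means of 1.29 to 2.05 CPM, have intervals that span both directions.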
